A study of Mus musculus with 6 samples.

Results

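The histone genes of colonies grown from bone marrow were examined as a family. They are the genes whose symbol begins with *Hist1h* to *Hist4h*, *H2af*, *H3f3* or *H1f*, and 37 of the 14735 genes in the expression table carried such a symbol. Of these, 27 belong to the *Hist* gene clusters, named cluster genes here. The other 10 have *H2af*, *H3f3* or *H1f* symbols and are replacement genes.

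Histones H2A, H2B, H3 and H4 form the protein core around which DNA is wrapped in a nucleosome, and H1 linker histones bind the DNA between nucleosomes. Cluster genes are transcribed mainly in S phase, when new DNA must be packed, and most of their mRNAs end in a short stem-loop in place of a poly(A) tail. Replacement genes give polyadenylated mRNA throughout the cell cycle, and their proteins are placed in chromatin outside replication, for instance H3.3 at transcribed genes.

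RNA came from fibroblast colony-forming units (CFU-Fs), colonies that single adherent marrow cells form in culture, and each library held all cells inside 1 cloning cylinder. The 3 tdTOMATO+ and the 3 tdTOMATO- CFU-Fs were picked at day 10 of culture in 2% oxygen, and all came from 2-month-old *Col10a1Cre; Rosa26 fs-tdTomato* mice. Every colony therefore carried the Cre and the reporter alleles, and a colony was red where Cre, driven by regulatory DNA of the hypertrophic chondrocyte collagen gene *Col10a1*, had been active in the founder cell or its ancestors. No source states that the 3 colonies of a group came from separate mice, so p-values measure the spread between these colonies. RNA was read as 50 bp single-end sequences, with 24085516 to 31046589 reads in genes per library. Values below are the normalized counts of the authors, not divided by gene length.

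No histone gene passed the test in either direction. With limma on log2(normalized count + 1), adjusted over all 14735 genes, 0 of 37 were called higher and 0 of 37 lower in tdTOMATO+ colonies, where 1.2% and 0.143% of all genes were called. The lowest adjusted p was 0.290 (*Hist1h1e*, limma). At an unadjusted p under 0.05, limma put 4 histone genes lower (*Hist1h1e*, *H2afx*, *Hist1h1d* and *Hist1h2bc*) and 0 higher, against 4.79% and 7.53% of all genes. On the reads recovered from the table, edgeR called 0 of the 37 genes, where it called 1.28% of all genes, and put 3 lower at an unadjusted p under 0.05 (4.71% of all genes). DESeq2 called 1 lower, *H2afx*, where it called 1.08% of all genes lower, and put 5 lower at an unadjusted p under 0.05 (4.87% of all genes). What follows on the histone genes describes levels and differences that did not pass limma's test.

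Most cluster genes had negative differences, and so did most replacement genes, whose median was smaller in size. Of the 27 cluster genes, 23 had a log2 fold change below 0, with a median of -0.44 and a range of -1.41 to 1.21. Of the 10 replacement genes, 8 were below 0, with a median of -0.08 and a range of -0.84 to 0.13. Over all genes the share below 0 was 51% and the median was -0.00. A log2 fold change below -0.5 was found for 12 cluster genes and 2 replacement genes, against 5.92% of all genes. Of these 12 cluster genes, 10 had a mean under 50 normalized counts, and the share over all genes was not matched for counts. A value above 0.5 was found for 1 cluster gene, against 9.71% of all genes. All 3 tdTOMATO+ values lay below all 3 tdTOMATO- values for 5 cluster genes and 1 replacement gene, and this held for 8.33% of all genes. The opposite held for 1 cluster gene, *Hist1h2ai*, and for 9.89% of all genes. With 3 colonies against 3, an exact permutation test cannot give a p under 0.1.

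**Figure D1:**
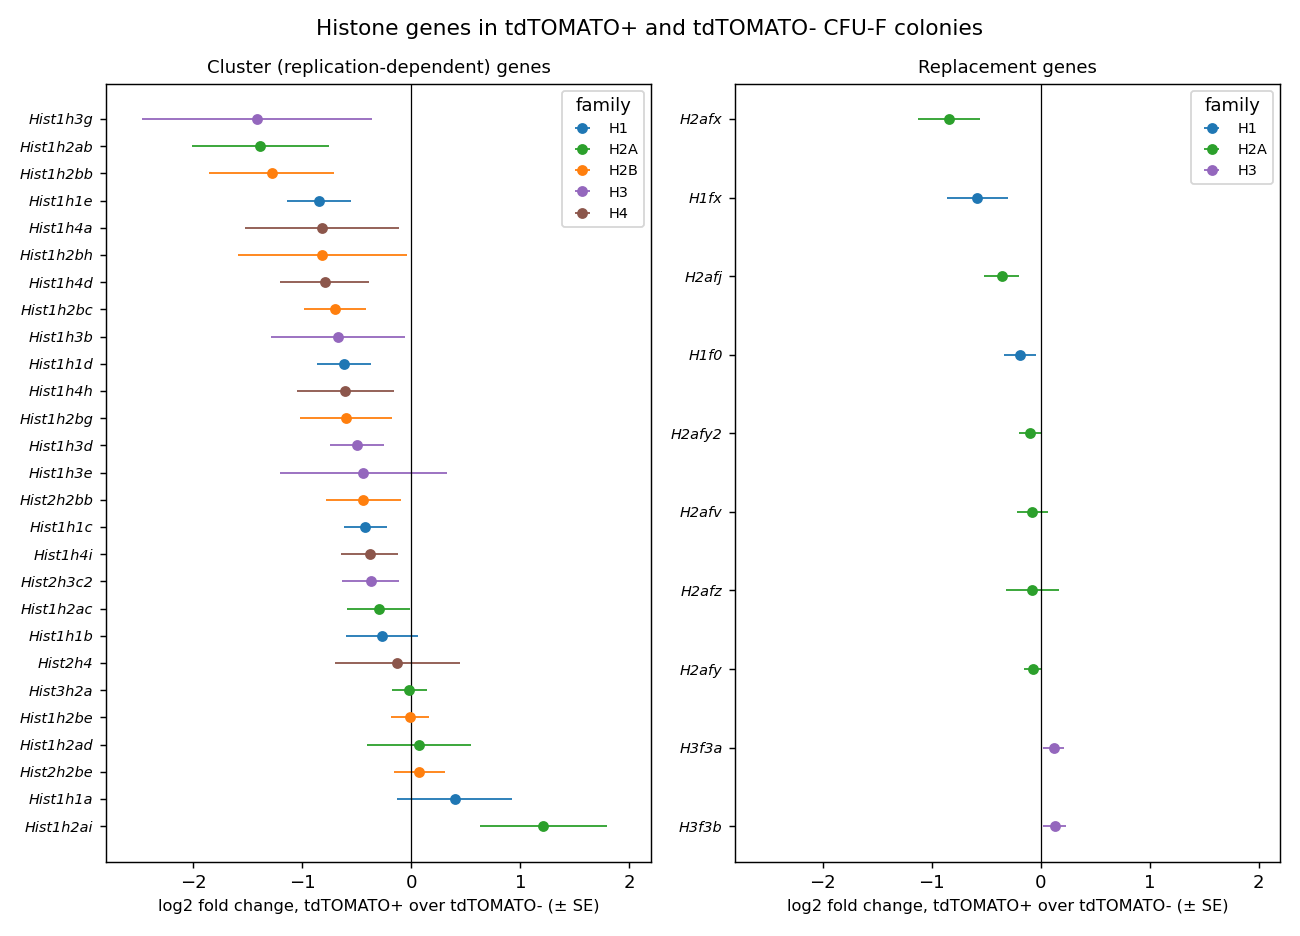
Log2 fold change of each of the 37 histone genes, tdTOMATO+ over tdTOMATO- colonies, from limma (points; bars are ± 1 SE; 3 colonies a group; colours are the 5 histone families). On the left, 23 of 27 cluster genes lie below 0; on the right, *H2afx* at -0.84 and *H1fx* at -0.58 lie apart from the other replacement genes.

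Counts were low for most cluster genes. Only 6 of the 27 had a mean of at least 50 normalized counts, 12 lay between 10 and 50, and 9 lay under 10, while all 10 replacement genes exceeded 50. In 13 cluster genes at least 1 library had fewer than 10 reads. The 6 better-counted cluster genes had a median log2 fold change of -0.22, with 5 below 0 where 52.1% of all genes at such counts were below 0. The 21 others had a median of -0.50, with 18 below 0. The lowest value of all, -1.41, belonged to *Hist1h3g*, a gene with 0 to 11 reads per library. Whether the libraries were made from poly(A)-selected RNA is not given in the sources used here, so how fully mRNAs without a tail were sampled is not known.

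The 2 groups differed in how many of their genes had a stem-loop near the 3′ end of the mRNA, without a full separation. The stem-loop was searched within 100 bases after the stop codon as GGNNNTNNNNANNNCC with a paired stem of 6 bases and a loop of 4 bases. It was found in 21 of 27 cluster genes and in 1 of 10 replacement genes, *H2afx*, against 0.146% of the 13023 genes of the table with at least 100 bases after the stop. For this background the longest such transcript of each gene was searched. For the histone genes every coding transcript was searched, whatever its length after the stop. The stem-loops of 5 genes that recur below are shown, with the 16 bases of stem and loop in capitals.

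Hist1h1c: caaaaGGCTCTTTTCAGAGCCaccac

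Hist1h1e: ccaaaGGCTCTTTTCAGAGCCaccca

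Hist1h4d: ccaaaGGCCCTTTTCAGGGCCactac

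Hist1h3g: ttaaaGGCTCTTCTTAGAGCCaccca

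H2afx: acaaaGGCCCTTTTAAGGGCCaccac

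Of the 22 stem-loops found, 13 had the same 16 bases as that of *Hist1h1c*. The *H2afx* element began 46 bases after the stop codon, and the gene also has a poly(A) signal (AATAAA or ATTAAA in the last 40 bases). It thus carries the mark of both groups, as do some cluster genes, among them *Hist1h1c*, *Hist1h4i* and *Hist3h2a*. The poly(A) signal was present in 9 of 10 replacement genes and in 8 of 27 cluster genes. Among the cluster genes, the 21 with a stem-loop had a median log2 fold change of -0.60, with 20 below 0, and the 6 without one had a median of -0.10, with 3 below 0. Of those 6, only *Hist1h2bc* and *Hist2h2be* had 100 annotated bases after the stop to search.

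Of the linker histone genes in the clusters, 4 of 5 had a log2 fold change below 0, with a median of -0.42. *Hist1h1c*, which encodes H1.2 and lies at chr13:23738808-23740367 (GRCm38, plus strand), had 2175, 1822 and 2242 normalized counts in tdTOMATO+ colonies, against 2209, 2605 and 3714 in tdTOMATO- colonies. The groups overlapped, since tdTOMATO- replicate 1 lay below tdTOMATO+ replicate 3, and the log2 fold change was -0.42 ± 0.20 (SE, n = 3 each, limma adjusted p = 0.458). *Hist1h1d* (H1.3; chr13:23553262-23560686, plus strand) had 77.3, 46.3 and 64.3 normalized counts in tdTOMATO+ colonies and 81.3, 106 and 98.2 in tdTOMATO- colonies. Its groups did not overlap, and the difference was -0.62 ± 0.24 on the log2 scale (limma adjusted p = 0.360). *Hist1h1e* (H1.4; chr13:23620629-23622558, minus strand) had 34.0, 27.4 and 24.1 normalized counts in tdTOMATO+ colonies, against 55.0, 37.6 and 66.2 in tdTOMATO- colonies. Here too every tdTOMATO+ colony was lower, and the log2 fold change was -0.85 ± 0.30 (limma unadjusted p = 0.0223, adjusted p = 0.290). The other linker genes of the clusters, *Hist1h1b* (H1.5) and *Hist1h1a* (H1.1), had log2 fold changes of -0.27 and 0.40 with overlapping groups.

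These linker genes also share promoter letters. In the RefSeq promoters (GRCm38.p6, 250 bases before to 50 after each start, both strands), the H1 box AAACACA was found in 4 of the 5 cluster H1 genes and in 7.18% of 32851 promoters. The 4 genes are *Hist1h1b*, *Hist1h1c*, *Hist1h1d* and *Hist1h1e*, and the gene without the box is *Hist1h1a*. The 3 stretches below, from the genes described above, have in capitals the H1 box, the CCAAT box and, in *Hist1h1d* and *Hist1h1e*, the TATA box, each read 5′ to 3′ on the strand of its gene.

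Hist1h1c, chr13:23738685-23738804, plus strand: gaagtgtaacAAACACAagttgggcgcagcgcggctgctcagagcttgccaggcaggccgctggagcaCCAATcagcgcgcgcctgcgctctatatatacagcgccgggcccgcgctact

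Hist1h1d, chr13:23554900-23555019, plus strand: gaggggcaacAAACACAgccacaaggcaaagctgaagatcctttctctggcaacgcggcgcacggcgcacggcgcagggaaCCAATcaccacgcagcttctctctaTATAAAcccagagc

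Hist1h1e, chr13:23622564-23622683, minus strand: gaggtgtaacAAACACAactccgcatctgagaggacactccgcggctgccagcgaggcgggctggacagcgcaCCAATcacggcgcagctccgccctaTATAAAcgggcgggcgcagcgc

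Across the histone genes with a promoter in that table, CCAAT was found in 22 of 24 cluster genes and 6 of 9 replacement genes, against 37.4% of all promoters. The TATA box TATAAA was found in 14 of 24 and 1 of 9, against 13.6%. The octamer ATTTGCAT, known from H2B promoters as the site of the factor OCT1, was found in 7 of 24 cluster genes, among them 4 of 5 H2B genes. It was also found in 1 of 9 replacement genes, *H3f3b*, and in 1.74% of all promoters. The H1 box AAACACA was found in 5 of 24 cluster genes and in 1 of 9 replacement genes, *H3f3a*. A match describes the letters only. The 5 cluster genes with AAACACA had a median log2 fold change of -0.62 and the 7 with ATTTGCAT a median of -0.44, beside -0.44 for all 27.

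Among the core histone genes of the clusters, each family had more genes below 0 than above. The difference between families was not tested. The median log2 fold change was -0.60 over 7 H2B genes (6 below 0), -0.50 over 5 H3 genes and -0.61 over 5 H4 genes (all 10 below 0), and -0.02 over 5 H2A genes (3 below 0). *Hist1h2bc*, a core H2B gene, had 1032, 836 and 465 normalized counts in tdTOMATO+ colonies, against 1143, 1301 and 1166 in tdTOMATO- colonies. Every tdTOMATO+ colony was lower, and the log2 fold change was -0.70 ± 0.29 (SE, n = 3 each, limma adjusted p = 0.399). Without tdTOMATO+ replicate 3 it was -0.37, and without each other colony in turn it lay between -0.94 and -0.64. *Hist1h2be*, another H2B gene, had 98.0, 91.8 and 87.4 normalized counts in tdTOMATO+ colonies and 85.9, 88.7 and 106 in tdTOMATO- colonies. Its groups overlapped at a log2 fold change of -0.01, with a 95% interval of -0.42 to 0.39. That of *Hist1h2bc*, -1.40 to -0.01, overlaps it, and the difference between these H2B genes was not tested.

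*Hist1h3d*, which encodes a core histone H3, had 28.9, 30.0 and 36.2 normalized counts in tdTOMATO+ colonies, against 43.5, 53.0 and 39.1 in tdTOMATO- colonies. The groups did not overlap (log2 fold change -0.50 ± 0.25, limma adjusted p = 0.485). *Hist2h3c2*, an H3 gene of the second cluster, had a log2 fold change of -0.37 with overlapping groups. Of the H4 genes, *Hist1h4d* had 13.4, 6.86 and 16.1 normalized counts in tdTOMATO+ colonies and 18.3, 18.3 and 26.1 in tdTOMATO- colonies, again without overlap. *Hist1h4i* and *Hist1h4h*, core H4 genes as well, had log2 fold changes of -0.38 and -0.61, and their groups overlapped.

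The H2A genes had log2 fold changes on both sides of 0. *Hist3h2a*, a core H2A gene outside the large clusters, had 145, 148 and 139 normalized counts in tdTOMATO+ colonies, against 123, 154 and 163 in tdTOMATO- colonies, and its log2 fold change was -0.02 with a 95% interval of -0.39 to 0.36. *Hist1h2ac* had a log2 fold change of -0.30 with overlapping groups. *Hist1h2ai* was the cluster gene with all tdTOMATO+ values above the tdTOMATO- ones: it had 9.28, 7.72 and 11.1 normalized counts in tdTOMATO+ colonies and 1.14, 5.78 and 5.01 in tdTOMATO- colonies. With 1 to 11 reads per library, its log2 fold change of 1.21 had a 95% interval of -0.15 to 2.56.

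**Figure D2:**
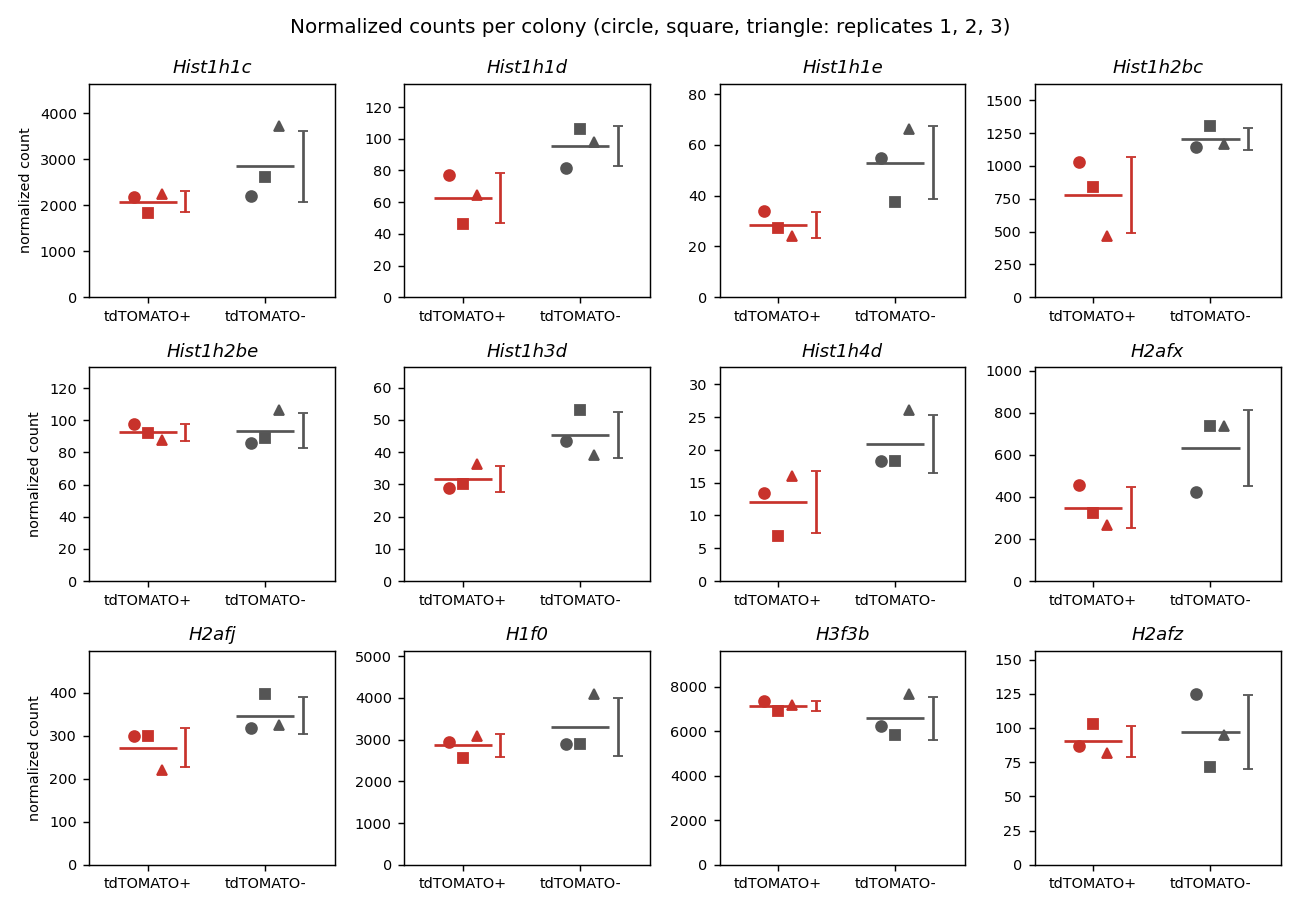
Normalized counts of 12 histone genes in each colony (circle, square and triangle are replicates 1, 2 and 3; the line is the mean and the bracket ± 1 SD; each axis starts at 0). The tdTOMATO+ points lie below every tdTOMATO- point for *Hist1h1d*, *Hist1h1e*, *Hist1h2bc*, *Hist1h3d*, *Hist1h4d* and *H2afj*, whereas for *H2afx* tdTOMATO- replicate 1 falls among the tdTOMATO+ colonies.

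By position, 22 cluster genes lie in the *Hist1* cluster on chromosome 13, 4 in the *Hist2* cluster on chromosome 3 and 1, *Hist3h2a*, on chromosome 11. The *Hist1* genes had a median log2 fold change of -0.60, with 19 below 0, and the 5 others a median of -0.13, with 4 below 0. Counts differed as well, since all 9 cluster genes with a mean under 10 normalized counts are *Hist1* genes. At least 1 library had fewer than 10 reads for 12 of the 22 *Hist1* genes and 1 of the 5 others. Within *Hist1*, 19 genes stand between chr13:23531050 and chr13:23764406 with no gap over 100000 bases between measured genes, and 17 of these 19 were below 0. *Hist1h2ai* lies outside that stretch, at chr13:21716422-21716814. In the later annotation used here (GENCODE M21), the 3′ end of *Hist1h1e* overlaps a long *Hist1h2be* transcript on the same strand, so reads there cannot be assigned to 1 of them.

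*H2afx* had the lowest log2 fold change of the replacement genes and is the one with a stem-loop. It encodes H2AX, the H2A variant that is phosphorylated at DNA breaks, and lies at chr9:44334694-44336077 (plus strand). It had 458, 324 and 266 normalized counts in tdTOMATO+ colonies, against 422, 735 and 737 in tdTOMATO- colonies. The groups overlapped because tdTOMATO- replicate 1 was below tdTOMATO+ replicate 1. The log2 fold change was -0.84 ± 0.29 (SE, n = 3 each, limma unadjusted p = 0.0234, adjusted p = 0.297). DESeq2 gave -0.85 with an adjusted p of 0.0376, and limma without tdTOMATO- replicate 1 gave -1.11 with an adjusted p of 0.0807. In limma without each other colony in turn, the log2 fold change lay between -1.055 and -0.67, with adjusted p between 0.226 and 0.615. With a replicate block the limma adjusted p was 0.432.

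The other H2A variants differed less. *H2afj*, which encodes H2A.J, a variant that accumulates in senescent human fibroblasts, had 299, 298 and 220 normalized counts in tdTOMATO+ colonies and 318, 397 and 326 in tdTOMATO- colonies. Its groups did not overlap, and the log2 fold change was -0.35 ± 0.16 (limma adjusted p = 0.427). *H2afz*, the gene of H2A.Z, a variant found around promoters, had 86.6, 103 and 81.4 normalized counts in tdTOMATO+ colonies, against 125, 71.3 and 95.2 in tdTOMATO- colonies, with a log2 fold change of -0.07. The second H2A.Z gene, *H2afv*, and the macroH2A genes *H2afy* and *H2afy2*, whose large variants are found on the inactive X chromosome, had log2 fold changes of -0.08, -0.07 and -0.09. All 4 of these genes had overlapping groups, with 95% intervals between -0.64 and 0.49 for *H2afz* and between -0.26 and 0.13 for *H2afy*.

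The H3.3 genes were the only replacement genes above 0. *H3f3b* had 7349, 6905 and 7169 normalized counts in tdTOMATO+ colonies, against 6247, 5813 and 7669 in tdTOMATO- colonies, and *H3f3a*, which encodes the same protein, had 466, 442 and 457 against 435, 446 and 378. Both overlapped, with log2 fold changes of 0.13 (95% interval -0.12 to 0.38) and 0.12 (-0.11 to 0.35). Neither H3.3 gene passed the test.

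Replacement linker histones were measured next. *H1f0* encodes H1.0, which accumulates in cells that stop dividing and differentiate, and had 2942, 2554 and 3084 normalized counts in tdTOMATO+ colonies, against 2896, 2906 and 4093 in tdTOMATO- colonies (log2 fold change -0.19 ± 0.15, limma adjusted p = 0.702). *H1fx*, the gene of the linker histone H1X, had 55.7, 66.9 and 36.2 normalized counts in tdTOMATO+ colonies and 73.3, 66.5 and 94.2 in tdTOMATO- colonies (-0.58 ± 0.28, limma adjusted p = 0.473). Both overlapped between groups. The counts of *Hist1h1c*, divided by those of *H1f0* in the same library, came to 73.9%, 71.3% and 72.7% in tdTOMATO+ colonies, against 76.3%, 89.6% and 90.7% in tdTOMATO- colonies. This ratio was lower in every tdTOMATO+ colony, and it says nothing of the levels of the 2 genes relative to each other, since it is not per length.

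Summed over genes, the groups of colonies did not overlap for the 27 cluster genes and overlapped for the replacement genes. The 27 cluster genes summed to 3949, 3348 and 3378 normalized counts in tdTOMATO+ colonies, against 4107, 4821 and 5834 in tdTOMATO- colonies, a ratio of means of 0.723. Of the counts in this sum, *Hist1h1c* and *Hist1h2bc* supplied 80.2% ± 0.915 in tdTOMATO+ colonies and 82.1% ± 1.38 in tdTOMATO- colonies (SD, n = 3 each). Without these genes the sums were 742, 690 and 671 in tdTOMATO+ colonies and 756, 915 and 954 in tdTOMATO- colonies, still without overlap at a ratio of 0.802. The 10 cluster H3 and H4 genes, which hold neither, summed to 170, 159 and 158 in tdTOMATO+ colonies, against 218, 259 and 214 in tdTOMATO- colonies (ratio 0.704). The 5 cluster H2A genes, which hold neither as well, summed to 194, 211 and 192 in tdTOMATO+ colonies and 171, 239 and 221 in tdTOMATO- colonies, with overlap and a ratio of 0.947. The H1 and H2B sums, which each hold 1 of them, did not overlap, at ratios of 0.728 and 0.685. The H2B genes summed to 1269, 1052 and 675 in tdTOMATO+ colonies and 1350, 1550 and 1477 in tdTOMATO- colonies. The replacement genes summed to 15078, 13754 and 14215 in tdTOMATO+ colonies and 13887, 13511 and 16826 in tdTOMATO- colonies, with overlap and a ratio of 0.973. Set against the replacement sum of the same library, the cluster sum was 26.2%, 24.3% and 23.8% in tdTOMATO+ colonies and 29.6%, 35.7% and 34.7% in tdTOMATO- colonies. No test was made on these sums.

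Genes of the cell cycle also lay mostly below 0, with small medians and sums that overlapped between groups. Of 43 S phase genes, 34 were below 0, limma called 0 in either direction, the median log2 fold change was -0.09, and their sum had a ratio of 0.964 with overlapping groups. Of 54 G2/M phase genes, 41 were below 0 and 0 were called, with a median of -0.12 and a ratio of 0.937, also with overlap. Over all genes 51% were below 0, and the difference between these lists and the cluster genes was not tested. At an unadjusted p under 0.05, limma put 1 S phase gene lower (*Hells*, a chromatin remodeller, -0.25) and 1 higher (*Rrm1*, a subunit of ribonucleotide reductase, 0.24), and 0 of the G2/M genes. edgeR and DESeq2 called 0 genes of either list. The G2/M genes with the smallest p were *Gas2l3* (0.26, limma adjusted p = 0.431) and *Tpx2* (-0.25, limma adjusted p = 0.462), which both act on the spindle or midzone of dividing cells. Counts of the cluster H3 and H4 genes were 0.559%, 0.543% and 0.594% of the S phase sum in tdTOMATO+ colonies, against 0.799%, 0.835% and 0.689% in tdTOMATO- colonies. *H2afx* was 1.50%, 1.11% and 1.00% of that sum in tdTOMATO+ colonies and 1.55%, 2.37% and 2.37% in tdTOMATO- colonies.

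**Figure D3:**
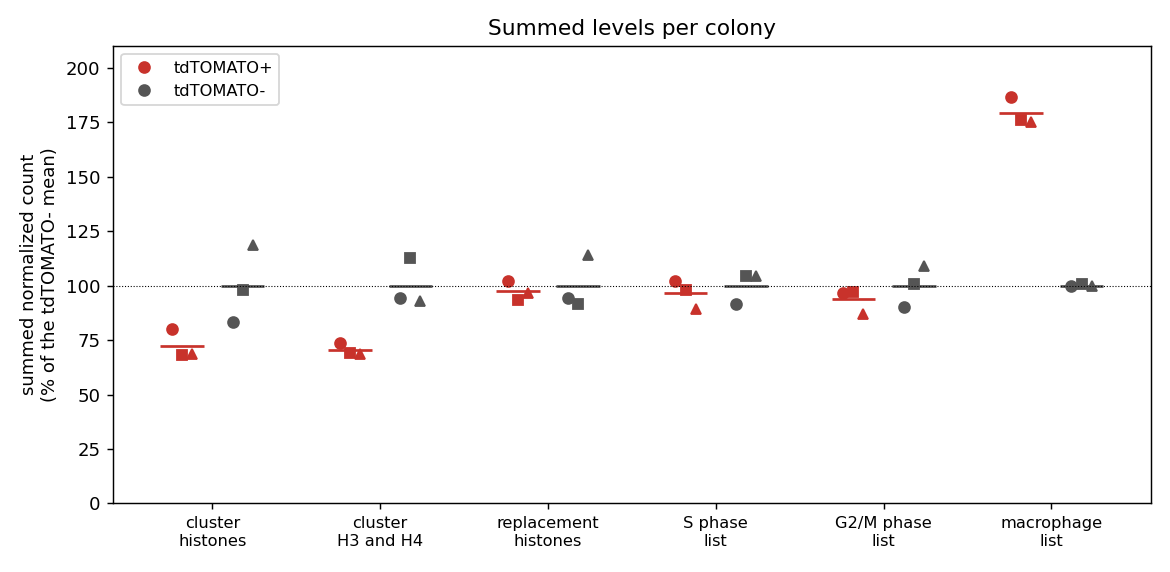
Summed normalized counts per colony, as a percentage of the tdTOMATO- mean of each list (red, tdTOMATO+; grey, tdTOMATO-; circle, square and triangle are replicates 1, 2 and 3; lines are group means). The cluster genes of tdTOMATO+ colonies lie between 68.0% and 80.3%, below all tdTOMATO- colonies, the replacement, S phase and G2/M sums overlap, and the macrophage sum lies between 175% and 187%.

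The machinery that makes and places histones showed no called gene. Its lists share some genes with the cell cycle lists above, among them *Slbp* (S phase) and *Hjurp* (G2/M). Of 14 genes for histone mRNA synthesis and processing, such as the stem-loop binding protein gene *Slbp*, limma, edgeR and DESeq2 called 0, and 0 had an unadjusted p under 0.05. Their median log2 fold change was -0.03. *Slbp* itself had 841, 716 and 692 normalized counts in tdTOMATO+ colonies, against 684, 804 and 853 in tdTOMATO- colonies, with overlap. The smallest p values of this list belonged to *Lsm11*, a part of the U7 particle that cuts histone pre-mRNA (-0.30, limma adjusted p = 0.523), and *Eri1*, an exonuclease that trims the stem-loop (-0.08, limma adjusted p = 0.768). Of 24 histone chaperones and exchange factors, 0 were called by any of the 3 tools and 0 had an unadjusted p under 0.05, with a median of -0.03. Those with the smallest p were *Hjurp*, which loads the centromeric H3 variant (-0.19, limma adjusted p = 0.494), and *Npm1*, a nucleolar chaperone (-0.14, limma adjusted p = 0.497).

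Markers of another cell type also differed between the colonies. Of 14 macrophage markers, limma called 10 higher in tdTOMATO+ colonies, with a median log2 fold change of 0.84. Their sum was 67178 to 71646 normalized counts in tdTOMATO+ colonies, against 38243 to 38651 in tdTOMATO- colonies. *Cd68* (1.05, limma adjusted p = 0.00546) and *Csf1r*, the receptor for macrophage colony-stimulating factor (0.67, limma adjusted p = 0.0135), were among them, as were the surface marker gene *Emr1* (0.83) and the complement gene *C1qb* (1.01), both at a limma adjusted p of 0.0135. All 5 pan-leukocyte genes were called higher, among them *Cd53* (0.90), *Lcp1* (0.81), *Laptm5* (0.75) and *Coro1a* (0.74). The macrophage count fell to 1 without tdTOMATO+ replicate 1 or 2, 2 without tdTOMATO- replicate 2 and 0 in limma without trend, and the pan-leukocyte count to 0 in each of these cases, while all 14 and all 5 stayed above 0. The 8 stroma genes gave 0 calls by limma, edgeR and DESeq2, at a median of -0.18, and limma put 1 lower at an unadjusted p under 0.05. Those with the smallest p were the collagen genes *Col3a1* (-0.56, limma adjusted p = 0.374) and *Col1a1* (-0.32, limma adjusted p = 0.491). The stroma sum was 1050240 to 1311740 normalized counts in tdTOMATO+ colonies against 1258250 to 1435350 in tdTOMATO- colonies. Osteoclast genes moved with the groups in part. *Acp5*, the gene of tartrate-resistant acid phosphatase, had 210, 83.2 and 95.5 normalized counts in tdTOMATO+ colonies, against 41.2, 35.7 and 26.1 in tdTOMATO- colonies, without overlap (1.79, limma unadjusted p = 0.00171, adjusted p = 0.0782). *Ocstamp*, which acts in osteoclast fusion, had 10.3, 5.15 and 0 in tdTOMATO+ colonies and was at 0 in all 3 tdTOMATO- colonies, and *Ctsk* had a log2 fold change of -0.05. Of these 3 genes limma called 0, with 1 at an unadjusted p under 0.05, edgeR called 0 and DESeq2 called 1 higher, *Acp5*. Of 3 endothelial genes, limma, edgeR and DESeq2 called 0 and 0 had an unadjusted p under 0.05, and *Cdh5* (1.15) and *Kdr* (0.25) had the smallest p with overlapping groups. No listed erythroid, B cell or neutrophil gene was in the table. The part of these cells in the histone differences was not tested. In RNA of whole colonies, fewer cells of a type and less RNA per cell cannot be told apart.

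Near-identical copies limit how far single histone genes can be told apart. The authors kept reads with a single location, and all 50-base windows of the coding sequence of *Hist1h2ad*, *Hist2h3c2* and *Hist3h2a* also occur in another gene of the annotation. The share was 97.6% for *Hist1h2bc*, 82.4% for *H3f3a*, 73.5% for *H2afz*, 33.7% for *H2afx* and 21.9% for *Hist1h1c*. In all, over 50% of windows were shared in 18 of 26 cluster genes with a coding annotation and in 2 of 10 replacement genes. Reads that fit several genes were left out of the counts, so the count of 1 gene beside another, and the share of a gene in a sum, does not give their relative levels. The cluster genes with over 50% shared had a median log2 fold change of -0.55. The cluster genes with 6.08% to 42.2% shared had log2 fold changes from -0.85 to -0.13. The 3 cluster genes with no shared window, *Hist1h1a*, *Hist1h1b* and *Hist2h2be*, had a median of 0.07, with 1 below 0. Of these, *Hist1h1a* and *Hist1h1b* had means of only 8.90 and 20.3 normalized counts. The relation of shared sequence to the differences was not tested.

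**Figure D4:**
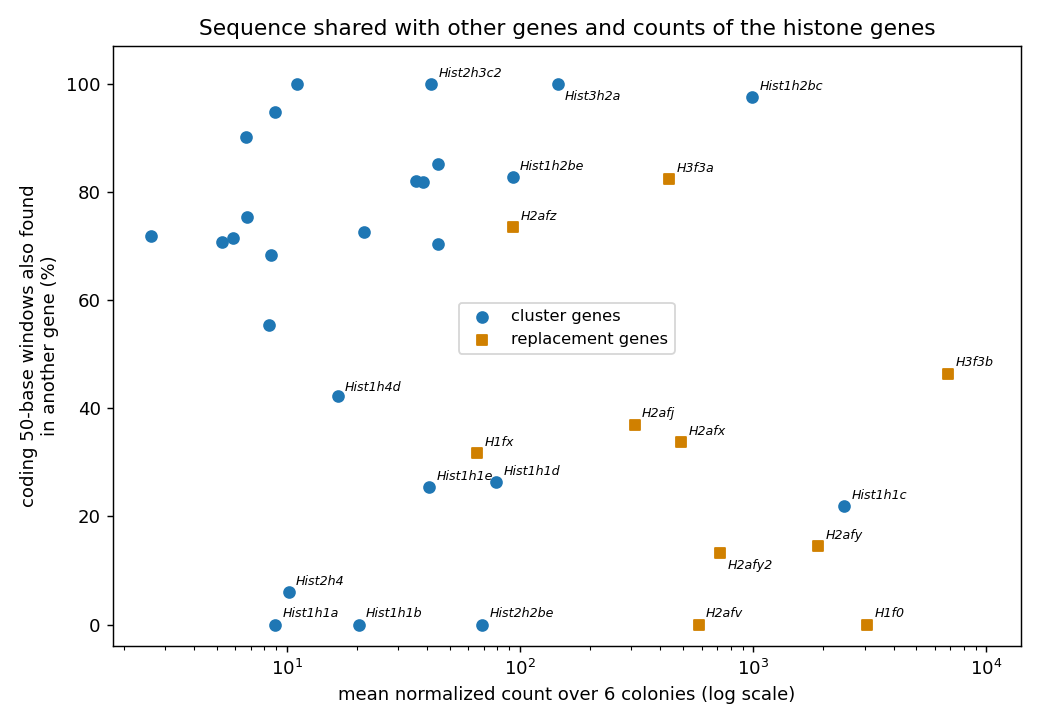
Share of 50-base coding windows that also occur in another gene (y axis, %) against the mean normalized count over the 6 colonies (x axis, log scale) for 26 cluster genes (circles) and 10 replacement genes (squares). Most cluster genes lie in the upper left, with many shared windows and few counts, whereas *Hist1h1c* has 21.9% of its windows shared.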

How the data were processed

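Per the methods of the study, adapters were removed with TrimGalore and Cutadapt before alignment to GRCm38 with STAR. Only uniquely placed reads entered the HTSeq counts, genes that never reached 10 reads were dropped, and counts were scaled by DESeq2 size factors. Versions are not given in the sources used here. What the authors deposited is an expression signal, the normalized count, for 3 tdTOMATO+ and 3 tdTOMATO- colonies. The columns with the authors' own fold changes, Wald statistics and p-values, and their gene ontology tables, were not used.

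Groups were compared two-sided with limma 3.58.1 (R 4.3.3) after log2(normalized count + 1), using lmFit and a robust eBayes with trend, no covariate and Benjamini-Hochberg adjustment over all 14735 genes at 0.05. Fold changes are on this scale, tdTOMATO+ over tdTOMATO-, and understate changes of low genes. The values of a library were all whole multiples of its own step (100% within 0.001). Reads recovered from these steps were tested with edgeR (4.0.16, quasi-likelihood, TMM) and DESeq2 (1.42.0). For replicate 3 of each group the step was 1.00, so recovery there rests on the unrounded values. All 3 tools were run on simulated data with changes planted only in genes with a mean of at least 50. That run does not cover the 21 cluster genes with a lower mean.

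Named genes are the 2 with the highest mean per histone family in each group, *H2afx*, *H2afz*, *H3f3a*, *H3f3b* and *H1f0*, those whose groups do not overlap at a mean of at least 50, and the 2 of each other list with the smallest p (up to 4 where more passed). *Hist1h1e*, *Hist1h1b*, *Hist1h1a*, *Hist1h4d*, *Hist1h3g*, *Hist1h2ai*, *Hist2h2be*, *H2afv*, *Slbp* and *Ctsk* were added after their values were seen. Members and lists were chosen with earlier results of these data known. Coordinates, stem-loops and coding windows are from GENCODE M21 (GRCm38), with 34 of the 37 genes matched by identifier and 3 by symbol. Of the 37 genes, 33 had a RefSeq promoter (GRCm38.p6).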

Additional observations from a re-analysis of the deposited data

How the results depend on the processing

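The count of histone genes called stayed at 0 in both directions under every alternative run except DESeq2, which called 1 lower (*H2afx*, -0.85). The median log2 fold change of the cluster genes was -0.22 among the 6 genes with a mean of at least 50, against -0.44 over all 27. The 21 cluster genes below that mean had a median of -0.50. Over all 27, the median lay between -0.55 and -0.33 when each colony was left out in turn. The median of the replacement genes lay between -0.22 and -0.043 when each colony was left out in turn, with -0.22 without tdTOMATO- replicate 2. Over all genes, 177 were called higher and 21 lower. These counts were 1 and 0 with limma without trend and 498 and 159 with DESeq2. Leaving out each colony in turn gave 1 to 178 higher and 0 to 44 lower, with the fewest of both without tdTOMATO+ replicate 2 and the most without tdTOMATO- replicate 1. Dropping tdTOMATO+ replicate 1 left 9 higher and 8 lower, dropping tdTOMATO+ replicate 3 left 103 and 10, dropping tdTOMATO- replicate 2 left 15 and 1, and dropping tdTOMATO- replicate 3 left 97 higher. Of 261 alternative values for 19 named histone genes, 254 kept their direction and their side of the threshold. Outside these 19, leaving out 1 colony changed the sign of some genes. Among them were *H2afv* (between -0.18 and 0.089) and *Hist2h2be* (between -0.078 and 0.16). Within the 19, the sign changed when 1 colony was left out for 3 genes near 0. Over the colonies left out, *H2afz* ranged between -0.28 and 0.12 (positive without tdTOMATO- replicate 1), *Hist1h2be* between -0.072 and 0.080 (positive without replicate 3 of either group, 0.025 for tdTOMATO+) and *Hist3h2a* between -0.14 and 0.065 (positive without tdTOMATO+ replicate 3, at 0.0081, and without tdTOMATO- replicate 2 or 3, the first of them at 0.023). With a replicate block, 124 genes were called higher and 24 lower and 0 histone genes were called. The deviations of same-numbered colonies correlated at 0.10, 0.01 and 0.20 over 11672 genes. For tdTOMATO+ replicates 1 and 3, the same-numbered tdTOMATO- colony correlated best. By contrast, tdTOMATO+ replicate 2 correlated best with tdTOMATO- replicate 1 (0.087). Deviations from the mean of 3 colonies must sum to 0, so these values cannot tell whether same-numbered colonies share a mouse or plate. The cause of the changes between runs was not tested. Low depth per gene limits the cluster genes most, with 13 of 27 under 10 reads in some library.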
